A study of Mus musculus with 22 samples.

Results

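The Klhdc genes encode proteins built from kelch repeats, and the 7 family members considered were Klhdc8a, Klhdc8b, Klhdc1, Klhdc2, Klhdc3, Klhdc4 and Klhdc10. They were chosen by name, and Klhdc8a was singled out because its translation was among the most reduced after Denr depletion in these same data, so its knockdown-to-control differences are given as a description with no p-value. Of the 7 genes, 5 were among the 10516 genes of the files. These were Klhdc8a, Klhdc1, Klhdc2, Klhdc3 and Klhdc10, and Klhdc8b and Klhdc4 were not analysed here.

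NIH3T3 mouse fibroblasts had been transduced with lentiviruses expressing Denr shRNA1 (3 lysates), Denr shRNA2 (3 lysates), scramble shRNA (3 lysates) or Gfp shRNA (2 lysates), so that control cells also carried an shRNA vector and went through puromycin selection. NIH3T3 is an immortalised cell line, transduced cells were used as selected populations, and cycloheximide was given briefly before lysis to hold ribosomes in place. Each lysate gave an RPF-seq library of ribosome-protected fragments, which locate translating ribosomes, and an RNA-seq library, so the 22 libraries formed 6 Denr knockdown (Kd) and 5 control lysates. The labels give the assay, the shRNA and a replicate number, and each replicate came from its own dish of confluent cells. The p-values measure the spread between these lysates.

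Kelch repeats fold into a propeller-shaped domain that holds other proteins. KLHDC2, KLHDC3 and KLHDC10 are substrate receptors of CUL2 ubiquitin ligases and recognise destruction signals at the extreme carboxyl terminus of their targets. KLHDC1 is a close relative of KLHDC2 and works with a cullin ligase as well, whereas KLHDC8A has been linked to the growth of glioma and its biochemical role is less well defined. DENR acts with MCTS1 to recycle the small ribosomal subunit and to allow reinitiation, in which a ribosome that has translated a short upstream open reading frame (uORF) in the 5′ UTR starts again at the main coding sequence (CDS). The comparison of Denr Kd with control cells asks which messages need that step.

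Because reinitiation depends on uORFs, the annotated 5′ UTRs of the family were searched for AUG-started uORFs of at least 9 nt (GENCODE M21, GRCm38). Klhdc8a has 1 protein-coding transcript, Klhdc8a-201, on the plus strand of chr1:132298626-132307357, with a 5′ UTR of 651 nt, longer than those of 95.4% of genes, and a GC content of 75.7%. It held 1 AUG and hence 1 uORF of 42 nt, which encodes 13 amino acids, lies at chr1:132299162-132299203 in exon 1 and ends 73 nt before the CDS. Klhdc3-201, on the minus strand of chr17:46674550-46680914, held 3 uORFs in a 5′ UTR of 415 nt, and the last stop codon lay 15 nt before the CDS. No AUG uORF was found in Klhdc1-201 (86 nt), Klhdc2-201 (273 nt) or Klhdc10-202 (98 nt), whose genes lie at chr12:69241176-69284632, chr12:69296681-69310687 and chr6:30401868-30455179, all on the plus strand. The Klhdc10 values had the CDS length of Klhdc10-202 and the 5′ UTR length, 126 nt, of Klhdc10-201, which held no AUG uORF either, whereas 3 other protein-coding transcripts of the gene held 3, 10 and 6. Among 10249 genes with an annotated 5′ UTR, 50.3% had at least 1 AUG uORF by the same search and 17.7% had at least 3.

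The start codons of the Klhdc8a and Klhdc3 uORFs and of their CDSs are shown because they are the sites at which initiation and reinitiation would take place. Capitals mark the AUG, written as ATG in these annotated transcript sequences, with the 9 bases before it and the 6 bases after it.
Klhdc8a uORF: cagcgcgagATGgaggct
Klhdc8a CDS: cgggctgccATGgaagtg
Klhdc3 uORF 1: taatcaaccATGgttaca
Klhdc3 uORF 2: catggttacATGgagttc
Klhdc3 uORF 3: cgggggggcATGttcctg
Klhdc3 CDS: gcccaggggATGttacgg
The uORF and the CDS of Klhdc8a both have G at position −3 and G at position +4, counted with the A of the start codon as +1, which are the favoured bases of the Kozak context. At −3 A is favoured as well as G. The first uORF of Klhdc3, with A at −3 and G at +4, thus has favoured bases at both positions. Its second has T at −3 and G at +4. The last, with G at −3 and T at +4, shares the frame and the stop codon of the second. The last uORF is 12 nt long and is printed in full with start and stop codons in capitals.
Klhdc3 uORF 3, whole: ATGttcctgTAA

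**Figure D1:**
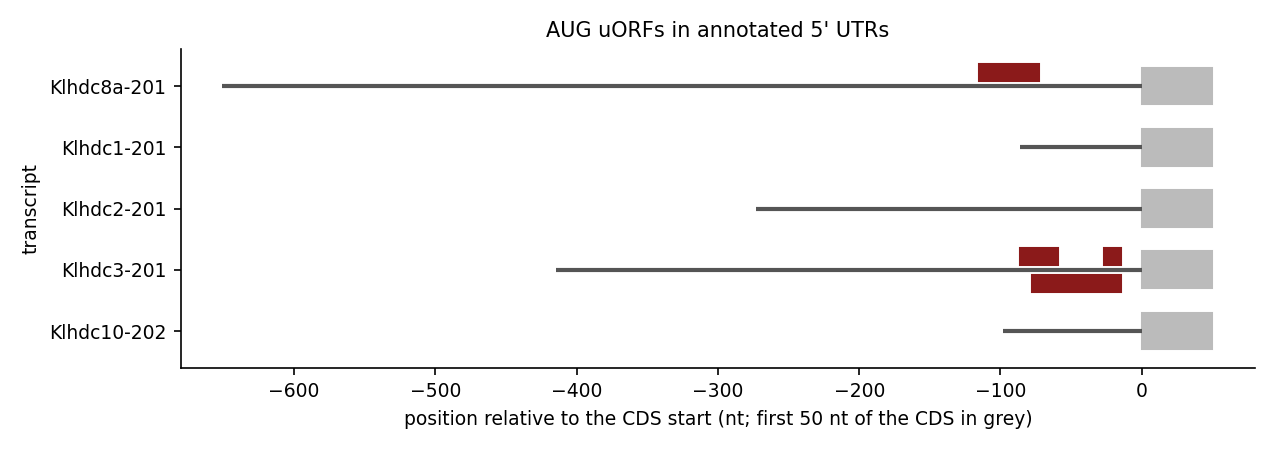
Annotated 5′ UTRs of the representative transcripts of the 5 Klhdc genes in the files, drawn to scale in nt relative to the CDS start, with AUG uORFs as red boxes and the start of the CDS in grey. Klhdc8a-201 has the longest 5′ UTR (651 nt) and 1 uORF, Klhdc3-201 has 3 uORFs, and the other 3 transcripts have none. In Klhdc3-201 the middle uORF overlaps the first and contains the last, which has the same frame and stop codon.

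Depth ranged from 10927303 to 21649878 reads on CDS and 5′ UTR per RPF-seq library and from 8514080 to 20109700 per RNA-seq library. All 10 fibroblast markers examined were present, with a summed RNA level between 7221 and 9078 RPKM in every lysate, whereas Cdh1, the 1 epithelial marker in the files, reached at most 4.05 RPKM. The targeted gene was checked first. Denr RNA was 44.0, 43.2 and 34.4 RPKM with Denr shRNA1, 15.5, 20.8 and 17.4 RPKM with Denr shRNA2, 190.1, 185.3 and 188.8 RPKM with scramble shRNA and 164.7 and 173.6 RPKM with Gfp shRNA. It lay below every control lysate in every Kd lysate (log2 change −2.75, SE 0.25, limma adjusted p = 0.00035). The mean reduction against control was 77.5% ± 2.95 (SD, n = 3) for shRNA1, smaller than the 90.1% ± 1.496 (SD, n = 3) for shRNA2.

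Klhdc8a CDS footprints were 60.0% lower in Denr Kd than in control cells as a group mean. The mean reduction against all controls was 47.4% with Denr shRNA1 and 72.7% with Denr shRNA2. Klhdc8a RNA and the footprints on the Klhdc8a 5′ UTR overlapped between the groups. Klhdc1, Klhdc2, Klhdc3 and Klhdc10 showed no change past the threshold in RNA, CDS footprints or translation efficiency. The threshold throughout is a false discovery rate (FDR) of 0.1 in limma, adjusted over all genes tested, and levels are RPKM, reads scaled to the length of the region and to the normalised library size.

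Klhdc8a CDS footprints were 4.58, 5.00 and 4.84 RPKM with Denr shRNA1 and 2.75, 2.99 and 1.75 RPKM with Denr shRNA2. They were 10.7, 10.8 and 10.0 RPKM with scramble shRNA and 7.85 and 6.25 RPKM with Gfp shRNA. Every Kd lysate lay below every control lysate. The mean was 4.81 RPKM with Denr shRNA1, 2.50 RPKM with Denr shRNA2, 10.5 RPKM with scramble shRNA and 7.05 RPKM with Gfp shRNA. The group means were 3.65 ± 1.34 RPKM (SD, n = 6) and 9.13 ± 2.00 RPKM (SD, n = 5), 60.0% lower in Kd cells, and the log2 difference was −1.36 (SE 0.25), the fifth lowest of 10516 genes. In 1.97% of all genes every Kd lysate was below every control lysate in this measure.

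These levels rest on few reads. The Klhdc8a CDS had 67, 72 and 67 footprints with shRNA1 and 40, 32 and 26 with shRNA2, against 127, 130 and 214 with scramble shRNA and 157 and 84 with Gfp shRNA. The 95% Poisson interval of the highest Kd lysate, 3.91 to 6.29 RPKM, overlapped that of the lowest control lysate, 4.99 to 7.74 RPKM. Such intervals cover counting error only.

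Klhdc8a RNA on the CDS was 48.4, 40.3 and 38.9 RPKM with shRNA1 and 34.7, 30.6 and 32.9 RPKM with shRNA2. It was 51.1, 41.7 and 43.0 RPKM with scramble shRNA and 36.2 and 29.1 RPKM with Gfp shRNA. The groups overlapped, and the log2 difference was −0.088 (SE 0.14). Under Denr shRNA1 alone the difference was of the opposite sign, 0.099. In the control cells this level was above those of 60.5% of genes.

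**Figure D2:**
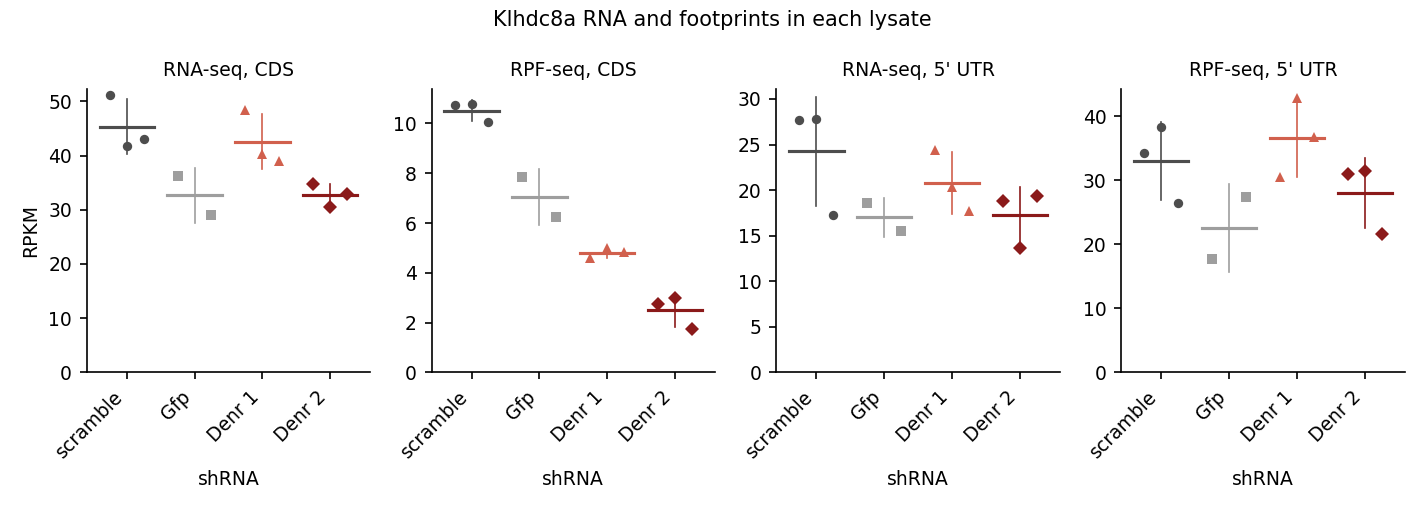
Klhdc8a levels in RPKM (vertical axes, linear, from 0) for RNA-seq and RPF-seq reads on the CDS and on the 5′ UTR, with 1 point per lysate, a horizontal line at the mean of each shRNA and a vertical line of ± 1 SD. CDS footprints of the 6 Denr Kd lysates lie between 1.75 and 5.00 RPKM, below the control lysates at 6.25 to 10.8 RPKM, and the other 3 panels overlap between Kd and control.

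Translation efficiency (TE), the ratio of CDS footprints to CDS RNA in the same lysate, was already low for Klhdc8a in control cells. On the log2 scale it was −2.24, −1.94 and −2.09 with scramble shRNA and −2.19 and −2.20 with Gfp shRNA, above that of 3.48% of genes. With Denr shRNA1 it was −3.37, −2.99 and −2.98, and with Denr shRNA2 it was −3.61, −3.31 and −4.16. The Kd and control lysates did not overlap, the spread was wider in Kd (SD 0.44, n = 6) than in control (SD 0.12, n = 5), and the lowest value was that of the lysate with the fewest footprints.

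The log2 TE of Klhdc8a differed by −1.27 (SE 0.19), the second lowest of 10516 genes, and the ratio was 2.41-fold lower in Kd. Across all genes, limma called 0.475% lower in TE and none (0%) higher, where 5.18% were lower and 1.47% higher at an unadjusted p under 0.05. In 1.32% of genes every Kd lysate was below every control lysate. Klhdc8a was picked with this contrast in view and these shares are given as background only.

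The other 4 genes lay close together in TE. In control cells the mean log2 TE was −0.58 for Klhdc2, −0.57 for Klhdc1, −0.56 for Klhdc3 and −0.34 for Klhdc10, against −2.13 for Klhdc8a. Klhdc8a did not overlap with any of them, Klhdc1, Klhdc2 and Klhdc3 could not be told apart beyond their spread, and Klhdc10 was above Klhdc3 in 5 of 5 control lysates.

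Set against its relatives within each lysate, Klhdc8a had a log2 TE below the mean of the other 4 genes by 1.78, 1.39 and 1.66 with scramble shRNA and by 1.74 and 1.54 with Gfp shRNA. The gap was 2.68, 2.49 and 2.41 with Denr shRNA1 and 3.03, 2.74 and 3.69 with Denr shRNA2. It averaged −2.84 ± 0.47 (SD, n = 6) in Kd and −1.62 ± 0.16 (SD, n = 5) in control lysates. A factor shared by all genes of a library cancels in this difference.

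**Figure D3:**
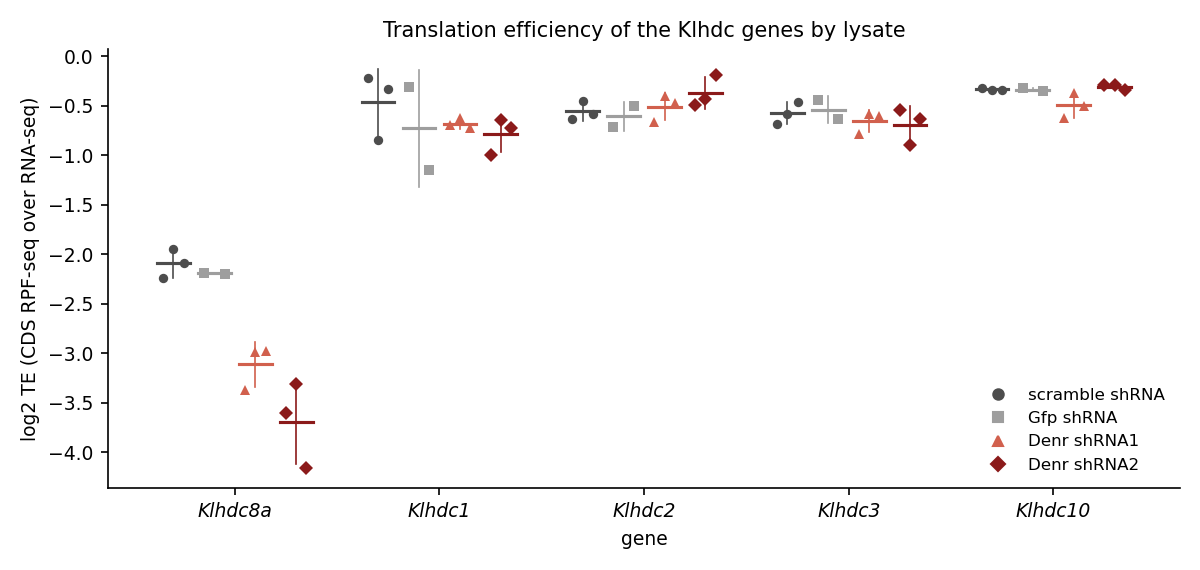
Log2 TE (CDS RPF-seq over CDS RNA-seq, vertical axis) of the 5 Klhdc genes, with 1 point per lysate, a horizontal line at the mean of each shRNA and a vertical line of ± 1 SD. Klhdc8a lies between −2.24 and −1.94 in control and between −4.16 and −2.98 in Denr Kd lysates, while Kd and control lysates overlap for each of the other 4 genes.

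Klhdc2, the receptor for proteins ending in diglycine, was the most abundant member, with 93.97, 94.0 and 102.4 RPKM of CDS RNA in scramble and 103.7 and 89.5 RPKM in Gfp shRNA lysates, and 103.7, 82.6, 91.9, 90.7, 80.4 and 79.1 RPKM in the 6 Kd lysates. Its CDS footprints ranged from 59.5 to 69.3 RPKM in Kd and from 60.3 to 68.4 RPKM in control. The log2 TE changed by 0.14 (SE 0.088, 95% interval −0.054 to 0.33, limma adjusted p = 0.91). Klhdc2 overlaps Nemf on the opposite strand, and how the counting treated strand is not given in the sources used here.

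Klhdc3, which recognises targets ending in glycine, had 18.1, 19.8 and 18.4 RPKM of CDS footprints in scramble and 23.2 and 19.9 RPKM in Gfp shRNA lysates, and 20.7, 20.9, 20.0, 19.1, 18.6 and 22.5 RPKM in Kd lysates. Its RNA ranged from 27.9 to 35.7 RPKM in Kd and from 25.5 to 31.6 RPKM in control. The log2 TE changed by −0.11 (SE 0.086, 95% interval −0.30 to 0.074, limma adjusted p = 0.95). Klhdc3 overlaps Mea1 and Gm26904 on the opposite strand.

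Klhdc10, another receptor of CUL2 ligases, had CDS RNA from 41.5 to 47.6 RPKM over all 11 lysates and CDS footprints from 29.99 to 37.7 RPKM. Its log2 TE changed by −0.067 (SE 0.075, 95% interval −0.23 to 0.095, limma adjusted p = 0.99). Klhdc1 was the least abundant, with CDS RNA from 4.94 to 6.75 RPKM in Kd and from 4.17 to 6.37 RPKM in control, and with 44 to 91 CDS footprints per library. The log2 TE of Klhdc1 changed by −0.16 (SE 0.16, 95% interval −0.50 to 0.18, limma adjusted p = 0.99), the widest interval of the 4. Klhdc1 overlaps Gm15561 on the opposite strand.

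Of these 4 genes none was called in TE, RNA or CDS footprints by limma, none had an unadjusted p under 0.05, and voom on the recovered reads called none either, where it called 0.637% of all genes lower and 0% higher in TE, 0.951% and 2.75% in RNA and 5.33% and 5.62% in CDS footprints. Over all genes, limma called 0.865% lower and 2.68% higher in RNA and 4.55% lower and 5.47% higher in CDS footprints. At an unadjusted p under 0.05 the shares were 4.92% and 11.2% in RNA and 10.9% and 12.7% in CDS footprints, so 0 of 4 is not far from what all genes would give. The RNA changes were 0.20 for Klhdc1 (adjusted p = 0.44), −0.14 for Klhdc2 (adjusted p = 0.41), 0.15 for Klhdc3 (adjusted p = 0.42) and 0.015 for Klhdc10 (adjusted p = 0.94) on the log2 scale in limma. A TE decrease as large as that of Klhdc8a lay outside the 95% interval of each of them.

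**Figure D4:**
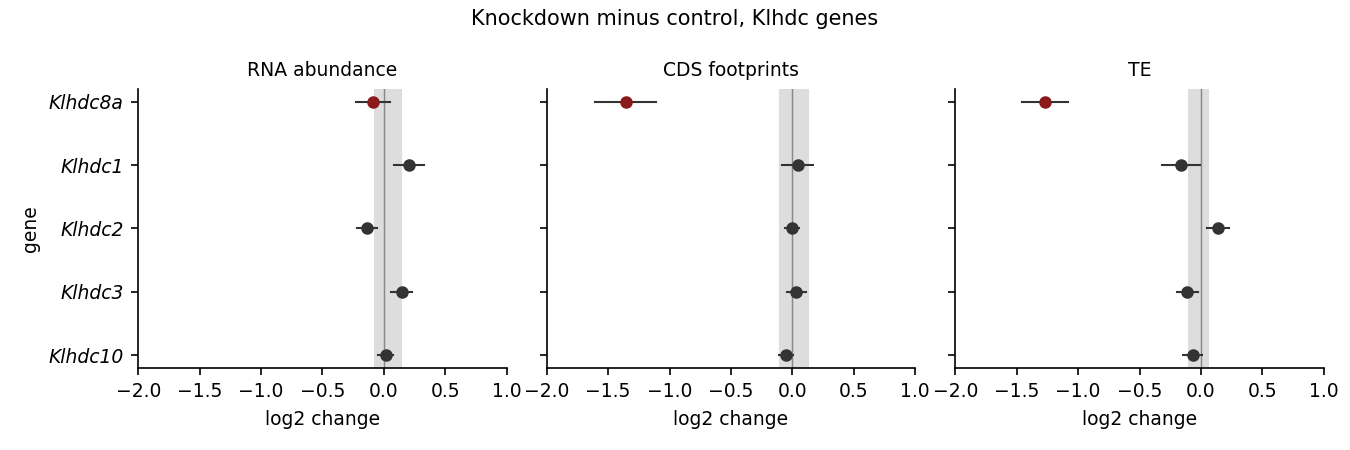
Log2 change of Denr Kd against control (horizontal axes) in RNA abundance, CDS footprints and TE for the 5 Klhdc genes, with dots for the limma estimate, lines of ± 1 SE and a grey band for the middle 50% of all 10516 genes. Klhdc8a stands at −0.088, −1.36 and −1.27, and the other 4 genes stand between −0.16 and 0.20 in all 3 panels.

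Relative 5′ UTR translation compares footprints on the 5′ UTR with those on the CDS of the same gene, as the log2 ratio of their RPKM. A gene entered the test when 9 or more of the 11 RPF-seq libraries had 20 or more 5′ UTR footprints, and Klhdc8a, Klhdc2 and Klhdc3 were among the 5175 genes that did. The measure shares the CDS footprints with TE, so the 2 are not separate evidence.

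Klhdc8a 5′ UTR footprints were 30.4, 42.9 and 36.7 RPKM with Denr shRNA1 and 31.0, 31.4 and 21.7 RPKM with Denr shRNA2. They were 34.3, 38.4 and 26.4 RPKM with scramble shRNA and 17.7 and 27.4 RPKM with Gfp shRNA. The groups overlapped, with a log2 difference of 0.18. RNA reads on the 5′ UTR overlapped as well, at 19.0 ± 3.48 RPKM (SD, n = 6) in Kd and 21.4 ± 5.92 RPKM (SD, n = 5) in control.

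The 5′ UTR-to-CDS ratio of Klhdc8a footprints was 6.64, 8.58 and 7.58 with shRNA1, 11.2, 10.5 and 12.4 with shRNA2, 3.20, 3.56 and 2.63 with scramble shRNA and 2.25 and 4.38 with Gfp shRNA. Every Kd lysate exceeded every control lysate, an order that 4.83% of covered genes showed. The mean ratio was 7.60 with shRNA1 and 11.4 with shRNA2, a difference that was not tested. On the log2 scale the Kd lysates were higher by 1.54 (SE 0.21), the second highest of 5175 genes, where the median gene was higher by 0.33. With each library centred on its own median, the Klhdc8a difference was 1.22.

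Even in control cells most Klhdc8a footprints lay upstream of the CDS. The 5′ UTR took 65.7% ± 5.79 (SD, n = 5) of the footprints on 5′ UTR and CDS in control and 85.0% ± 3.13 (SD, n = 6) in Kd lysates. In control cells the relative 5′ UTR translation of Klhdc8a was above that of 95.3% of the covered genes, and 28.7% of them had a higher footprint density on the 5′ UTR than on the CDS.

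Klhdc3 was the other member with more footprint density on the 5′ UTR than on the CDS. Its ratio was 1.34, 1.83 and 1.96 with scramble shRNA, 1.01 and 1.67 with Gfp shRNA, 1.69, 2.06 and 2.47 with Denr shRNA1 and 1.93, 2.13 and 1.89 with Denr shRNA2. The groups overlapped, and the log2 ratio changed by 0.41 (SE 0.18, limma adjusted p = 0.13), near the median of all covered genes. Centred on the library medians the change was 0.086 (limma adjusted p = 0.89). Klhdc3 thus held uORFs and 5′ UTR footprints, as Klhdc8a did, with a TE that did not pass the test. The 5′ UTR length behind its values, 441 nt, matched no annotated transcript, so its 5′ UTR RPKM cannot be assigned to 1 isoform.

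Klhdc2, with no AUG uORF, had 5′ UTR-to-CDS ratios from 0.426 to 0.675 in Kd and from 0.322 to 0.621 in control lysates. The log2 ratio changed by 0.27 (SE 0.19, limma adjusted p = 0.31), and by −0.055 (limma adjusted p = 0.94) once libraries were centred. Of all covered genes 18.1% were called higher and 0.0386% lower in this measure, and in 4.83% every Kd lysate exceeded every control lysate. Neither Klhdc2 nor Klhdc3 was called, and Klhdc3 had an unadjusted p under 0.05, as did 33.3% of covered genes upwards and 0.0773% downwards.

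Klhdc1 and Klhdc10 had too few 5′ UTR footprints for the test. Klhdc1 had 0 to 5 such reads per library. Klhdc10 had 14, 16 and 1 in scramble, 24 and 21 in Gfp shRNA and 18 to 31 in Kd lysates. The log2 ratio of Klhdc10 was higher by 1.27 in Kd over all lysates and by 0.34 without scramble shRNA replicate 3, the library with 1 read. The same library had no Klhdc1 5′ UTR footprint, and without it the difference of Klhdc1 went from 0.95 to 0.051.

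**Figure D5:**
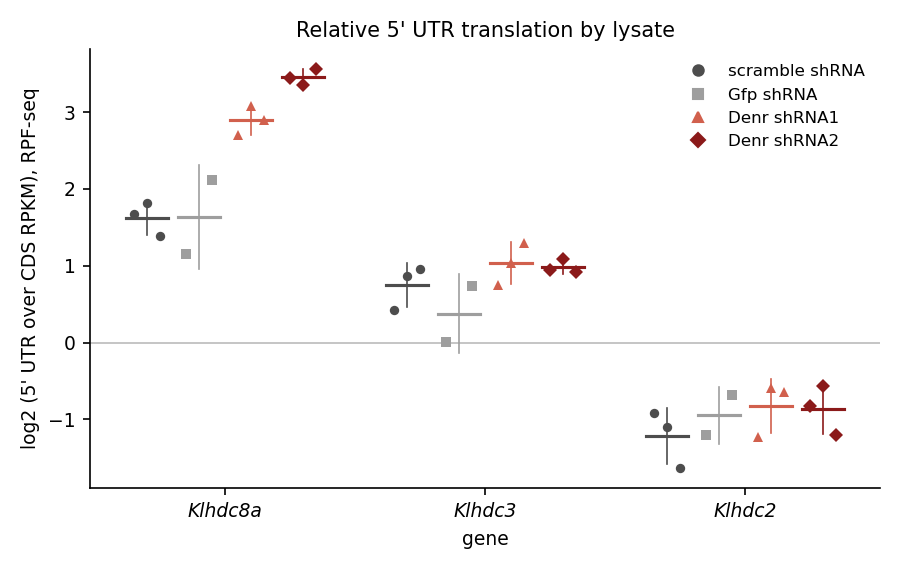
Relative 5′ UTR translation, the log2 ratio of 5′ UTR to CDS RPKM in RPF-seq (vertical axis, with a grey line at equal density), of the 3 Klhdc genes with enough 5′ UTR footprints, with 1 point per lysate, a horizontal line at the mean of each shRNA and a vertical line of ± 1 SD. Klhdc8a lies between 1.16 and 2.11 in control and between 2.71 and 3.56 in Kd lysates, Klhdc3 lies above equal density in every lysate, and Klhdc2 lies below it.

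Klhdc8a was chosen by Kd against control, not by comparisons within the Kd or within the control cells. These comparisons use the same lysates as that choice, so for Klhdc8a they are not independent evidence. Denr shRNA2, which left less Denr RNA than shRNA1, gave a Klhdc8a log2 TE lower by 0.58 than shRNA1 (SE 0.21, limma adjusted p = 0.97). Before adjustment the limma p of that difference was 0.019. The 2 sets of 3 lysates overlapped, since shRNA1 replicate 1 was below shRNA2 replicate 2, and the difference was −0.35 without shRNA2 replicate 3. Denr RNA and Klhdc8a TE were both lower with shRNA2 as means, but single lysates did not keep that order. Denr shRNA1 replicate 1 had the most Denr RNA of the Kd lysates and the lowest Klhdc8a TE with shRNA1. The part of Denr RNA in the difference was not tested. For the other 4 genes the difference between the Denr shRNAs was between −0.11 and 0.19, with adjusted limma p-values of at least 0.97. Klhdc10 TE was higher in each shRNA2 lysate than in each shRNA1 lysate (0.19, SE 0.095, limma adjusted p = 0.97), an order that 5.46% of all genes showed. No gene of the files (0%) was called in this comparison by limma, and 1.71% were lower and 2.02% higher at an unadjusted p under 0.05.

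Between the controls, Klhdc8a log2 TE was lower with Gfp than with scramble shRNA by 0.10 (SE 0.23, 95% interval −0.62 to 0.41, limma adjusted p = 0.9998). Its mean RNA was 45.3 RPKM with scramble and 32.6 RPKM with Gfp shRNA, and its mean CDS footprints were 10.5 and 7.05 RPKM. Neither of these differences was tested, and TE, the ratio of footprints to RNA, overlapped. For the other members the log2 TE difference was −0.26 for Klhdc1, −0.050 for Klhdc2, 0.038 for Klhdc3 and −0.0055 for Klhdc10. None was called by limma and none was under an unadjusted p of 0.05. Over all genes limma called 0% in either direction, and 0.837% were lower and 1.38% higher at an unadjusted p under 0.05.

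The genes whose TE profile over the 11 lysates, centred on its mean, came closest to that of Klhdc8a were ranked by root mean square difference among 10146 genes with a mean CDS level of at least 1 RPKM in both assays. Anapc5, a subunit of the anaphase-promoting complex, came first at 0.201 log2 units. It was followed by Samd4b, an RNA-binding protein of the Smaug family, at 0.266, the magnesium transporter Slc41a1 at 0.268, Map2k6, an activator of p38 kinases, at 0.288 and Fam43a at 0.2997. Their log2 TE changes were −1.38, −1.03, −1.05, −0.99 and −0.99, which follow from the choice. In the same order their RNA changed by 0.25, 0.35, 0.45, 0.88 and 0.71 and their CDS footprints by −1.13, −0.67, −0.60, −0.11 and −0.29. For Klhdc8a these changes were −0.088 and −1.36, so a near TE profile did not mean the same change in RNA and footprints. Their representative transcripts had 1, 0, 3, 1 and 4 AUG uORFs in the same order.

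The machinery around KLHDC receptors was read from a list of 15 CUL2 ligase genes, among them the scaffold Cul2, the adaptors Elob and Eloc and other receptors such as Fem1b and Zyg11b. Of the 14 in the files none was called in TE, RNA or CDS footprints by limma or voom, and none had an unadjusted p under 0.05 in limma. Over all genes limma called 0.475% lower in TE and 0.865% lower and 2.68% higher in RNA, and 4.55% lower and 5.47% higher in CDS footprints, so 0 of 14 is not far from the background. Their median log2 TE change was −0.080, against −0.012 over all genes. In relative 5′ UTR translation 0 of 10 covered genes were called by limma and 1, Appbp2, named after its value was seen, had an unadjusted p under 0.05, where 18.1% of covered genes were called higher and 33.3% were higher at an unadjusted p under 0.05. The 10 genes had a median change of 0.22 against 0.33 over all covered genes.

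In a list of 64 other proteins with kelch repeats, 38 were in the files. Their median log2 TE change was −0.050, with none called by limma, where 0.475% of all genes were called lower. At an unadjusted p under 0.05, 5 of the 38 were lower and 1 was higher, beside 5.18% and 1.47% of all genes. In voom 2 were called lower, Ivns1abp and Hcfc1, beside 0.637% of all genes. The lowest TE changes were those of Klhl10 (−0.60, SE 0.28), Ivns1abp, which binds the influenza NS1 protein (−0.50, SE 0.13), and Hcfc1, a transcriptional coregulator (−0.32, SE 0.073). The highest were those of Kbtbd3 (0.31, SE 0.12), Kbtbd8, a CUL3 adaptor (0.12, SE 0.16), and Klhl23 (0.10, SE 0.16). The Klhdc8a change of −1.27 was lower than that of each of the 38 genes. Klhdc8a was singled out for its reduced translation in these same data, so this order follows from the choice.

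Among the 38, limma called 3 genes in each of the other measures, and 4 of these calls held in every fit that left out 1 lysate. Of the 38, 1 was lower and 2 were higher in RNA, beside 0.865% and 2.68% of all genes, and 2 were lower and 1 was higher in CDS footprints, beside 4.55% and 5.47%, so 3 of 38 in CDS footprints is near the background. CDS footprints fell for Enc1 (log2 change −0.48, limma adjusted p = 0.019) and for the CUL3 adaptor Klhl20 (−0.26, limma adjusted p = 0.047), RNA rose for Ivns1abp (0.31, limma adjusted p = 0.020), and relative 5′ UTR translation rose for Ivns1abp (0.81, limma adjusted p = 0.034). The call was lost without any of several lysates for Klhl24 CDS footprints (0.54, limma adjusted p = 0.094), for Enc1 and Hcfc1 RNA (−0.33 and 0.32, limma adjusted p = 0.049 and 0.080) and for Klhl20 and Klhl7 relative 5′ UTR translation (0.63 and 0.51, limma adjusted p = 0.058 and 0.091). Of the 17 covered genes these made 3, beside a background of 18.1%, and none of the 3 was called once libraries were centred. Enc1, Klhl20, Klhl24 and Klhl7 were named after their values were seen.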

How the data were processed

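RPF-seq and RNA-seq reads from 11 NIH3T3 lysates were trimmed, aligned in sequence to rRNA, tRNA, cDNA (Ensembl) and the mouse genome (GRCm38), and counted by the authors, with Bowtie2 2.2.1, TopHat2 2.0.11 and Cufflinks 2.2.1 per the submitters' processing notes. The deposited values are RPKM on CDS and 5′ UTR, which the authors normalised by upper quartile in edgeR, separately for RPF-seq and RNA-seq, after removing genes with few reads. Whole reads were recovered from the RPKM values, and all 231352 CDS values and all 228800 5′ UTR values came out whole within 0.002 reads. Scaling makes levels relative to each library, so a global change would not be seen.

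TE was log2(RPF RPKM + 0.1) − log2(RNA RPKM + 0.1) per lysate, and fold changes are on this scale, which understates changes of low genes. Models were fitted with limma 3.58.1 (R 4.3.3) over all genes, with trended empirical Bayes, Benjamini-Hochberg adjustment and an FDR of 0.1. The TE fit was tried on simulated reads that had the same dispersion for every gene and no likeness between same-numbered lysates. That trial does not show how the fit behaves with the spread of these lysates. Kd was compared with both controls together, and the comparisons between shRNAs used all 11 lysates with 4 means. uORFs and coordinates came from GENCODE M21 annotation. The members and lists were chosen with earlier results of these data known. The text names the 7 Klhdc genes, Denr, CUL2-list genes past the FDR (0 were), the 3 lowest and 3 highest kelch-list genes in TE and the 5 profiles nearest to Klhdc8a. Other CUL2-list genes are named to describe the list, or after their values were seen. Alternatives were other pseudocounts, a level filter, median centring, a replicate block, each shRNA alone, scramble shRNA alone as control, voom on recovered reads, another coverage filter and leaving out each lysate.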

Additional observations from a re-analysis of the deposited data

Results flagged for a closer look

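In 4 of 40 sets of member values examined, the highest or lowest lysate stood far from the others of its group by Dixon's test, which chance gives in about 1 of 20 groups. For Klhdc1, Denr shRNA2 replicate 1 was the lowest Kd lysate in log2 TE (−0.996) and in log2 relative 5′ UTR translation (−1.73, from 1 read on the 5′ UTR). For Klhdc10, scramble shRNA replicate 3 was the highest control lysate in log2 CDS RNA (5.58) and the lowest in log2 relative 5′ UTR translation (−6.26, from 1 read on the 5′ UTR).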

How the results depend on the processing

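Of 520 values of the 5 members recomputed under other settings, 490 were classed as unchanged. For the Kd-to-control changes of Klhdc8a, which had no p-value, this meant the same direction and a shift smaller than the SD within groups. For all other values it meant the same direction and the same side of the threshold. The log2 TE change of Klhdc8a stayed between −1.56 and −0.98. Some Kd-to-control changes reversed in settings that kept all lysates of the shRNAs compared. With Denr shRNA1 alone the RNA change of Klhdc8a was 0.099 and the CDS footprint change of Klhdc2 was 0.0017. With Denr shRNA2 alone the changes of Klhdc10 were 0.028 in TE, −0.022 in RNA and 0.0055 in CDS footprints, and that of Klhdc1 was −0.13 in CDS footprints. With scramble shRNA alone as control Klhdc10 RNA was at −0.0082 and Klhdc1 CDS footprints at −0.0043. With libraries centred on their median Klhdc10 RNA was at −0.0079 and Klhdc2 relative 5′ UTR translation at −0.055. Klhdc8a CDS footprints moved to −0.88 with shRNA1 alone and −1.83 with shRNA2 alone.

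The 50 genes called in TE became 1 with shRNA1 alone and 10 when scramble shRNA served as the sole control. The 373 genes called in RNA became 159 and 940 in the same settings, the 1053 called in CDS footprints became 2651 with scramble shRNA alone, and the 939 called in relative 5′ UTR translation became 5 with centred libraries, 5 with shRNA1 alone, 9 with shRNA2 alone, 514 with scramble shRNA alone and 124 with the other coverage filter. The cause was not tested.

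Leaving out 1 lysate gave 14 (without Gfp shRNA replicate 2) to 72 genes (without Denr shRNA1 replicate 1) in TE, 139 (without scramble shRNA replicate 2) to 734 in RNA, 484 (without scramble shRNA replicate 1) to 1946 in CDS footprints, 38 (without Denr shRNA2 replicate 2) to 1773 in relative 5′ UTR translation and 0 to 1 in TE between the Denr shRNAs. Values that changed sign ranged from −0.20 to 0.0044 (Klhdc8a) and −0.0020 to 0.050 (Klhdc10) in RNA, from −0.033 to 0.11 (Klhdc1) and −0.027 to 0.021 (Klhdc2) in CDS footprints, from −0.021 to 0.18 for Klhl23 TE, from −0.11 to 0.071 for Klhdc3 TE between the Denr shRNAs, and from −0.68 to 0.15 (Klhdc1), −0.16 to 0.056 (Klhdc2), −0.060 to 0.14 (Klhdc3) and −0.018 to 0.0068 (Klhdc10) for TE between the controls.

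The shRNAs share replicate numbers that no label ties to a batch. Deviations of same-numbered lysates correlated above 0.1 in 10 of 15 pairs for TE and RNA, 13 of 15 for CDS footprints and 11 of 15 for relative 5′ UTR translation. For pairs with different numbers it was 4 of 30 for TE and CDS footprints and 5 of 30 for RNA and relative 5′ UTR translation. Same-numbered lysates were thus more alike, though not in every pair. The main fits had no replicate term, so their p-values take no account of this. With a replicate block the counts were 58 in TE, 1003 in RNA, 1940 in CDS footprints and 2418 in relative 5′ UTR translation. In relative 5′ UTR translation Klhdc3 changed by 0.37 (limma adjusted p = 0.059), the 1 member value with a p-value that crossed the threshold.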
